A study of Homo sapiens with 4 samples.

Results

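The 10 genes described here belong to the circadian clock: CLOCK, PER1, PER2, PER3, CRY1, CRY2, NR1D1, NR1D2, DBP and BHLHE40. They were taken from the deposited gene table by symbol, each symbol matched 1 row, and they are 10 of the 60048 genes listed. Their nascent RNA was compared between auxin-treated and control HCT116 cells, an established colorectal carcinoma line. Every library came from the RAD21-mAC genotype, in which a degron fused to the cohesin subunit RAD21 lets auxin trigger destruction of the protein. The control group received DMSO and the auxin group received indole-3-acetic acid at 0.5 mM for 3 h, with 2 libraries in each group. Before RNA was isolated, 5-ethynyl uridine (EU) at 0.5 mM was given for 20 min, so that the sequenced RNA was RNA newly made in that interval. The labels do not say whether the 2 libraries of a group came from separate cultures, so the p-values rest on a spread between libraries that may be technical. The fit takes that spread largely from all genes together, not mainly from a gene's own libraries. They name neither a synchronisation of the cells nor a clock hour for the harvest.

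In the clock of mammalian cells, CLOCK and its partner BMAL1 bind E-box sequences and switch on the PER and CRY genes, whose proteins return to the nucleus and inhibit CLOCK and BMAL1. A second loop runs through the nuclear receptors NR1D1 and NR1D2 (REV-ERB alpha and beta), which are switched on through E-boxes and repress BMAL1 through ROR elements, the sites through which the ROR proteins activate it. DBP is an output transcription factor of the same E-boxes, and BHLHE40 is a repressor that competes for them.

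Because E-boxes connect most of these genes, the bases before their transcription starts were searched in the RefSeq promoter table of GRCh38.p14, which runs from 250 bases before to 50 bases after a start. For each gene the window whose start lay nearest to the deposited start was used; 9 of the 10 starts were equal to it and that of CRY2 lay 69 bases away. The letters CACGTG, the canonical E-box, which reads the same on both strands, were present in 2 of the 10 windows (PER1 and BHLHE40), against 7.26% of the 35116 windows in the table. The letters CACGTT, the E-prime box, searched on both strands, were present in 4 of the 10 (PER2, CRY1, CRY2 and NR1D1), against 5.34% of all windows. The D-box TTATGTAA and the cAMP response element TGACGTCA, both on both strands, were in 0 of the 10, against 0.886% and 1.85% of all windows. The letters AGGTCA, the core of a ROR element, were in 2 of the 10 on either strand (PER1 and CRY2), against 13.8%. None of the 5 sets of letters was found in the windows used for CLOCK, PER3, NR1D2 and DBP. Windows at other RefSeq starts of these genes added CACGTG in NR1D2, the E-prime box in CLOCK (187 bases before that start) and the D-box in PER3 (177 bases) and NR1D2 (194 bases), so that with any start counted 3 of the 10 held the E-box, 5 the E-prime box and 2 the D-box.

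Sequences are shown for genes that carry an E-box or E-prime box in the window used. PER3 and NR1D2 are added because PER2, PER3, NR1D1 and NR1D2 are the genes whose auxin libraries both lay below both control libraries. The E-prime box at the other start of CLOCK is not shown. They are written 5′ to 3′ on the strand of the gene, with the E-box or the E-prime box, on whichever strand it lies, in capitals. The bases before the start of PER2 and NR1D1 are given in full, with the box beginning 197 bases before the start of PER2 and 168 before that of NR1D1. PER3, which has a pair of RefSeq starts, is shown up to the more upstream one and holds no box. NR1D2 holds none before its nearest start, but its other RefSeq start has CACGTG 155 and 105 bases upstream, shown in 30 bases each. The box begins 173 bases before the start in PER1, 245 in BHLHE40, 89 in CRY1 and 188 in CRY2.
PER2, chr2:238288611-238288860, minus strand: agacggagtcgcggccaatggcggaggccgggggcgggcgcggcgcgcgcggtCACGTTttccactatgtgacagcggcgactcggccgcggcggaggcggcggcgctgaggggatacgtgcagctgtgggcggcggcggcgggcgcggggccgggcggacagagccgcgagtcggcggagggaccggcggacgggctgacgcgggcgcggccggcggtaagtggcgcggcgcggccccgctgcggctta
NR1D1, chr17:40100590-40100839, minus strand: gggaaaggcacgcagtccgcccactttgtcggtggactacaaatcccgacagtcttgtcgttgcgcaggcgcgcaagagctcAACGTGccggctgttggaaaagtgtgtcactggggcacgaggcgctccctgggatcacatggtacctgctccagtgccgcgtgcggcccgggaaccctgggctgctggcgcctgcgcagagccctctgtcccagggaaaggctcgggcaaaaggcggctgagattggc
PER3, chr1:7784179-7784290, plus strand: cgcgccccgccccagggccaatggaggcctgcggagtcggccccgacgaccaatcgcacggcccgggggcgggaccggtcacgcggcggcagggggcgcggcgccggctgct
NR1D2, chr3:23945954-23945983, plus strand: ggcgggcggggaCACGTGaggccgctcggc
NR1D2, chr3:23946004-23946033, plus strand: gggccgcagggaCACGTGggggcgggggcg
PER1, chr17:8152560-8152589, minus strand: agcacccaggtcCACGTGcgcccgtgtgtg
BHLHE40, chr3:4979187-4979216, plus strand: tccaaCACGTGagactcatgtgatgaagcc
CRY1, chr12:107093621-107093650, minus strand: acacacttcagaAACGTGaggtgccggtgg
CRY2, chr11:45847275-45847304, plus strand: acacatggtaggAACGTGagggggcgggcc

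All values below are the deposited gene signal divided by 1 factor per library, its total adjusted by the trimmed mean of M-values, so that libraries are comparable. The libraries held between 46570 and 47311 genes above 0, and their divisors ran from 0.816 to 1.21. The deposited values are not whole numbers and were not treated as counts of reads, and the read depth is unknown. RAD21 itself had a log2 fold change of -0.0029 (limma adjusted p = 0.998); auxin acts on the RAD21 protein, so this RNA value checks no label. The 6 epithelial markers EPCAM, KRT8, KRT18, KRT19, CDH1 and VIL1 summed to between 56051 and 64114 per library, and none of them was called. That sum joins unlike members: CDH1 had a log2 fold change of 0.55 (limma adjusted p = 0.0578) with both auxin libraries above both controls, while the other 5 had both below, from -0.37 for KRT19 (limma adjusted p = 0.261) to -0.18 for VIL1 (limma adjusted p = 0.864). Their part in the results was not tested. The 6 markers of blood, fibroblast and endothelial cells (PTPRC, CD3E, COL1A1, COL3A1, PECAM1 and VWF) summed to between 1154 and 1742, higher in both auxin libraries than in both control libraries; none was at 0 in any library, none of the 5 tested was called, and CD3E, the T cell marker, was too low to be tested, at deposited values from 2.72 to 6.23. This sum also joins unlike members. COL1A1 alone held 577 and 732 of it in control and 893 and 998 in auxin, with a log2 fold change of 0.54 (limma adjusted p = 0.335). PECAM1 and VWF were also higher in both auxin libraries, PTPRC and COL3A1 had overlapping groups, and CD3E was lower in both. The part of these markers was not tested either. In such bulk libraries, fewer cells making an RNA and less RNA made per cell cannot be told apart.

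After auxin, none of the 10 clock genes differed from control past the threshold. All 10 passed the filter on low values, and 0 had an adjusted p under 0.05 (limma on log2 values, Benjamini-Hochberg over all genes tested), against 0.732% of the 39464 genes tested. At an unadjusted p under 0.05 there were also 0 of the 10, against 10.2% of all genes. The log2 fold changes ranged from -0.30 to 0.21, with 6 negative, 4 positive and a median of -0.083, beside a median of 0.0089 over all genes tested. Leaving out control replicate 1 gave a median of -0.16 for the 10 genes, and leaving out auxin replicate 2 gave -0.19. The 95% confidence intervals ran from -0.66 at the lowest bound to 0.54 at the highest, so that changes down to -36.8% and up to 45.0% lay within the interval of at least 1 gene, and none reached a 2-fold change. In 4 of the 10 both auxin libraries lay below both control libraries, against 19.6% of all genes, and in 1 of the 10 both lay above, against 18.6%. These 2 counts depended on the scaling: the former was 2 and the latter 0 on the deposited values without scaling, and the latter was 2 when libraries were scaled by their totals.

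**Figure D1:**
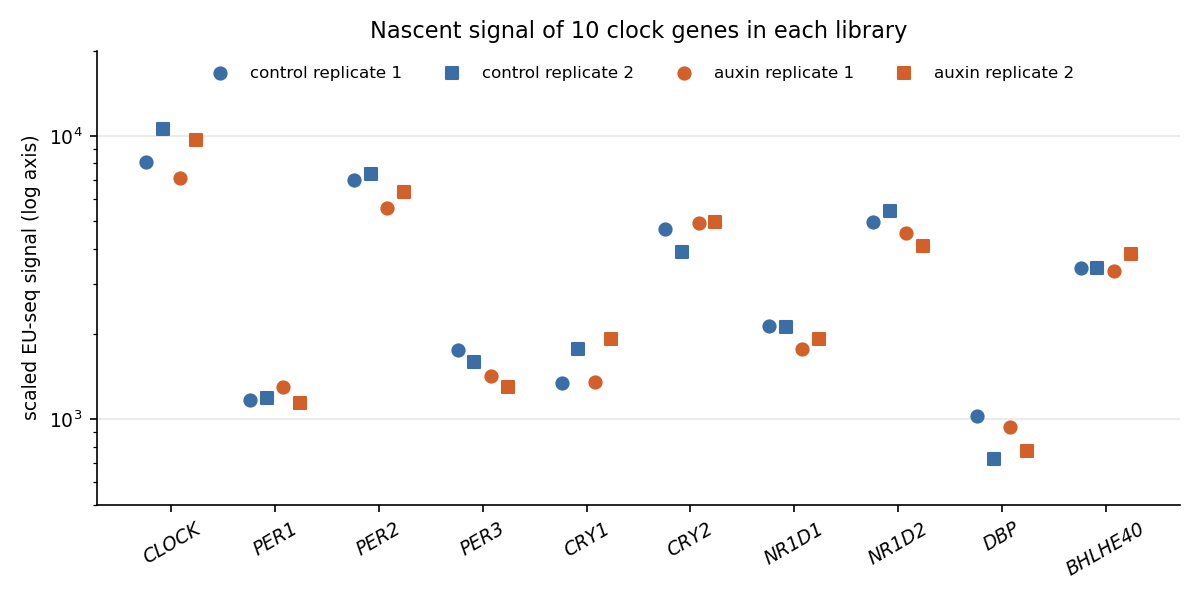
Scaled EU-seq signal (log axis) of the 10 clock genes, with 1 point per library; blue points are control, orange points auxin, circles replicate 1 and squares replicate 2. For PER2, PER3, NR1D1 and NR1D2 both orange points sit below both blue points, for CRY2 both sit above, and for the other 5 genes the groups overlap.

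CLOCK, a histone acetyltransferase, is the only one of the 10 that belongs to the E-box activator itself. The gene lies on chromosome 4 (GRCh38, 55427903 to 55546909, minus strand). Its scaled signal was 8076 and 10572 in control replicates 1 and 2 and 7126 and 9691 in auxin replicates 1 and 2. The replicates of each group lay further apart than the groups did, and the groups overlapped. The log2 fold change was -0.15 (SE 0.18, 95% confidence interval -0.54 to 0.24, limma adjusted p = 0.892), and its sign turned to 0.041 without control replicate 2 and to 0.076 without auxin replicate 1. TMEM165, on the other strand, overlaps 21.4% of its span and carried 0.409 times its control signal, with a log2 fold change of -0.082 (limma adjusted p = 0.949).

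The 3 PER genes encode the scaffold of the repressor complex. PER1, which also answers quickly to cAMP and glucocorticoid signals, lies on chromosome 17 (8140472 to 8152404, minus strand). It had 1172 and 1188 in the control libraries and 1306 and 1144 in the auxin libraries. The control values lay between the auxin values, and the log2 fold change was 0.051 (SE 0.17, interval -0.33 to 0.43, limma adjusted p = 0.98); it was -0.037 without auxin replicate 1. Its first 1589 bases, 13.3% of the span, are shared with AC129492.3 on the same strand, a protein-coding gene with 2.99 times the control signal of PER1. AC129492.3, at a control mean of 3531, also spans VAMP2 on that strand, which lies outside PER1 and had a control mean of 2535. The ratio therefore does not measure signal shared with PER1. How signal was divided between overlapping genes is not given in the sources used here.

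PER2, whose protein stability sets the pace of the clock, lies on chromosome 2 (238244044 to 238288610, minus strand). Its signal was 6983 and 7323 in control and 5554 and 6332 in auxin. Both auxin values lay below both control values. Expressed as log2 fold change, the difference was -0.27 (SE 0.13, interval -0.56 to 0.022), with an unadjusted p of 0.0667 and a limma adjusted p of 0.537, so the difference did not pass the threshold. The lncRNA gene AC012485.1, on the other strand over 11590 bases of the span, stood at 0.409 times the control signal of PER2 and had a log2 fold change of -0.22 (limma adjusted p = 0.722).

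PER3, the PER gene least needed for rhythm, lies on chromosome 1 (7784429 to 7845176, plus strand). It had 1761 and 1589 in control and 1420.3 and 1303 in auxin, again with no overlap of the groups. The log2 fold change of -0.30 was the lowest of the 10 genes (SE 0.16, interval -0.66 to 0.066, unadjusted p = 0.0986, limma adjusted p = 0.619). Z98884.1, a lncRNA gene inside PER3 on the other strand, had 0.188 times its control signal and a log2 fold change of -0.42 (limma adjusted p = 0.588). The 3 paralogues thus held 1 gene with overlapping groups and 2 whose intervals each ran from a decrease to a small increase.

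CRY1 and CRY2 encode the cryptochromes, the subunits that bind CLOCK and BMAL1 and block them. CRY1 (chromosome 12, 106991364 to 107093549, minus strand) had 1346 and 1777 in control and 1358 and 1925 in auxin. Replicate 1 was low and replicate 2 high in both groups, and the groups overlapped almost completely. CRY1 had a log2 fold change of 0.064 (SE 0.21, interval -0.41 to 0.53, limma adjusted p = 0.98), and its sign turned, to -0.13 on leaving out control replicate 1 and to -0.19 on leaving out auxin replicate 2.

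CRY2 (chromosome 11, 45847406 to 45883248, plus strand) was the only one of the 10 with both auxin libraries above both control libraries, at 4708 and 3880.5 in control and 4928 and 4987 in auxin. The auxin libraries lay close together, while the control libraries lay further apart than the higher of them lay from the auxin libraries. Its log2 fold change was 0.21 (SE 0.15, interval -0.11 to 0.54, limma adjusted p = 0.733). CRY2 is also the only one of the 10 whose span overlaps no other gene of the table.

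NR1D1 and NR1D2 encode the REV-ERB repressors, which bind haem and silence BMAL1. NR1D1 (chromosome 17, 40092793 to 40100589, minus strand) had 2132 and 2119 in control and 1767 and 1921 in auxin. The control libraries nearly coincided, and both auxin libraries lay below them. Between groups the log2 fold change came to -0.21 (SE 0.15, interval -0.55 to 0.14, limma adjusted p = 0.771). The end of NR1D1 shares 821 bases, 10.5% of its span, with the end of the thyroid hormone receptor gene THRA on the other strand. THRA carried 0.878 times the control signal of NR1D1 and had a log2 fold change of -0.14 (limma adjusted p = 0.91), with overlapping groups.

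NR1D2 (chromosome 3, 23945286 to 23980617, plus strand) had 4979 and 5450.4 in control and 4550.2 and 4094 in auxin. All of the auxin values were below the control values, as for NR1D1. NR1D2 had a log2 fold change of -0.27 (SE 0.14, interval -0.58 to 0.035, unadjusted p = 0.077, limma adjusted p = 0.563). NKIRAS1 starts on the other strand within NR1D2, shares 3.70% of the span of NR1D2 and carried 1.84 times its control signal. NKIRAS1 had a log2 fold change of -0.15 (limma adjusted p = 0.836), with both auxin libraries below both control libraries.

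DBP, a PAR bZIP transcription factor that binds D-boxes and is one of the strongest rhythmic transcripts in many tissues, lies on chromosome 19 (48630030 to 48637379, minus strand). It had 1028 and 725 in control and 942 and 776 in auxin, so that both auxin values lay between the control values. For DBP the log2 fold change was -0.014 (SE 0.22, interval -0.49 to 0.47, limma adjusted p = 0.996). Its sign was not stable: it was 0.022 with libraries scaled by their totals, and leaving out control replicate 1 or auxin replicate 2 gave 0.25 and 0.13. SPHK2, whose end overlaps 5.13% of DBP on the other strand, had 3.44 times the control signal of DBP and a log2 fold change of -0.023 (limma adjusted p = 0.992).

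BHLHE40 (DEC1), which also responds to hypoxia and growth factors, lies on chromosome 3 (4979437 to 4985323, plus strand). Its control libraries stood at 3420.0 and 3423 and its auxin libraries at 3352 and 3836, on either side of the control values. BHLHE40 had a log2 fold change of 0.068 (SE 0.14, interval -0.25 to 0.39, limma adjusted p = 0.963), and it was -0.031 without auxin replicate 2. The antisense gene BHLHE40-AS1 had 0.249 times its control signal and a log2 fold change of 0.041 (limma adjusted p = 0.987).

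**Figure D2:**
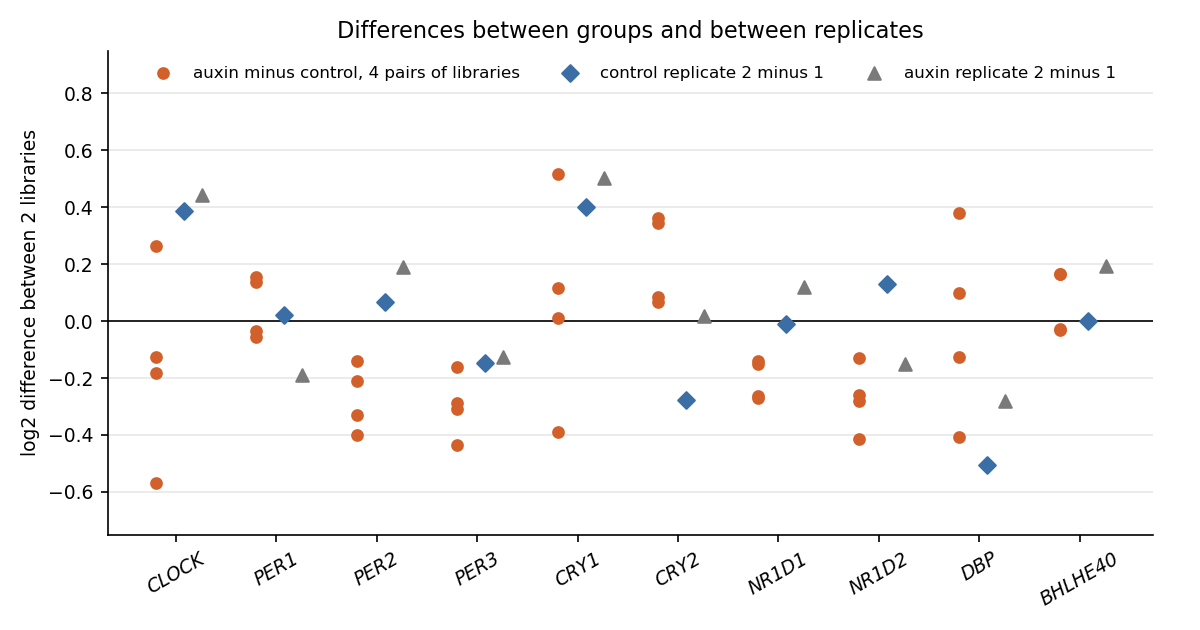
Log2 difference between pairs of libraries for each clock gene: orange circles set each auxin library against each control library (4 pairs), blue diamonds control replicate 2 minus replicate 1, and grey triangles auxin replicate 2 minus replicate 1. All 4 orange points lie below 0 for PER2, PER3, NR1D1 and NR1D2 and above 0 for CRY2, and the replicate differences are widest for CLOCK, CRY1 and DBP.

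The spread between replicates was set beside the difference between groups for each gene. In 6 of the 10 genes the larger of the 2 replicate differences, on the log2 scale, exceeded the size of the log2 fold change. The same held for 16 of the 24 other clock-pathway genes described below, and the share over all genes was not computed. A difference between single libraries scatters more than one between group means, and the larger of 2 was taken. The count is therefore no measure of noise against effect in these genes. CRY1 had replicate differences (replicate 2 minus replicate 1) of 0.40 in control and 0.50 in auxin, CLOCK of 0.39 and 0.44, and DBP of -0.50 and -0.28. By contrast PER2 had 0.069 and 0.19, NR1D1 had -0.0087 and 0.12, PER3 had -0.15 and -0.12, and NR1D2 had 0.13 and -0.15. CRY2, whose groups did not overlap either, had -0.28 and 0.017.

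Levels of different genes were compared as signal per kb of gene span, introns included. BHLHE40 had the highest level in control, at 581 ± 0.388 per kb (SD, n = 2), which placed it above 95.3% of the 17767 protein-coding genes tested. NR1D1 followed at 273 ± 1.16, PER2 at 161 ± 5.40 and NR1D2 at 148 ± 9.44, each with both control libraries apart from those of its neighbours. CRY2 at 119.8 ± 16.3, DBP at 119 ± 29.2 and PER1 at 98.9 ± 0.978 followed; CRY2 and DBP, and DBP and PER1, did not differ beyond their spread. CLOCK stood at 78.4 ± 14.8, close to the median of 62.9 over protein-coding genes, PER3 at 27.6 ± 2.00, and CRY1 was lowest at 15.3 ± 2.98, above 29.3% of protein-coding genes. The range from CRY1 to BHLHE40 was 38.0-fold. The order is that of signal per kb: by signal over the whole gene CLOCK, at 9324, was highest and DBP, at 876, lowest. In auxin the ends of this order were the same, with 610 ± 58.1 per kb for BHLHE40 and 16.1 ± 3.92 for CRY1 (SD, n = 2).

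**Figure D3:**
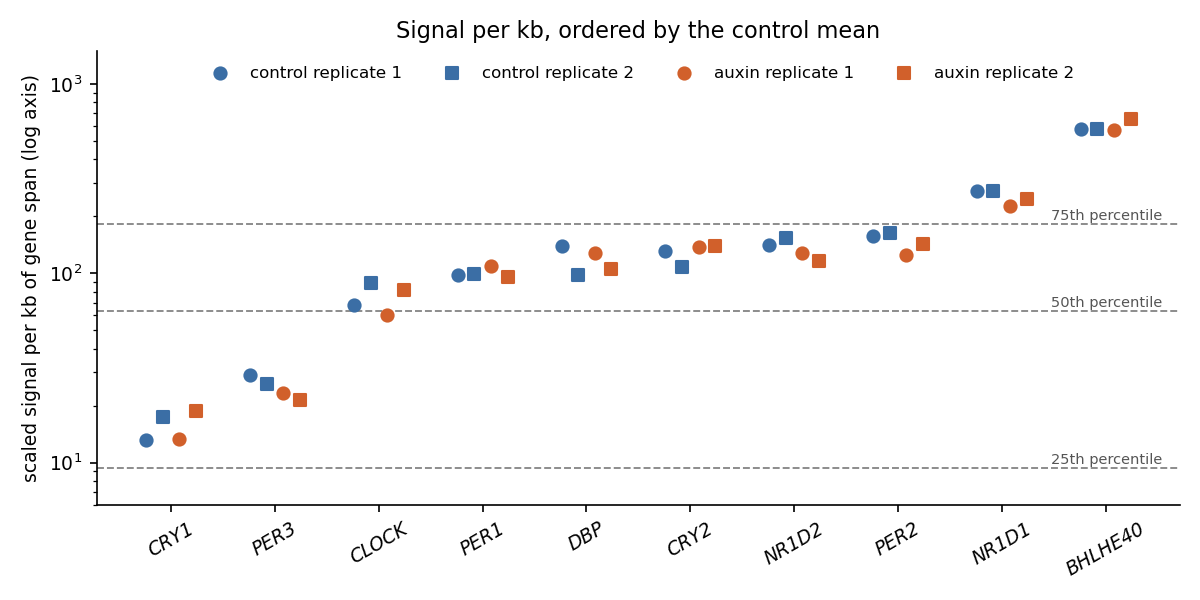
Scaled signal per kb of gene span (log axis) in each library, with the clock genes ordered by their control mean and dashed lines at percentiles of the control level over 17767 protein-coding genes. The order runs from CRY1 at 15.3 to BHLHE40 at 581 per kb, and the control and auxin points of a gene lie close together beside the differences between genes.

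The table gives the length of a gene as its whole span and no strand setting is known, so the genes that share bases with the clock genes were also followed. Of the 10 genes, 9 overlapped at least 1 other gene of the table, with 12 overlapping genes in all, and 8 of these 12 had at least 0.1 times the control signal of the clock gene they overlap. None of the 12 had a limma adjusted p under 0.05 or an unadjusted p under 0.05, beside 0.732% and 10.2% of all genes. Among the 20 nearest tested genes that do not overlap, 1 on each side, 0 were called and 2 had an unadjusted p under 0.05, a share near that of all genes. Both were lower in auxin. AC012485.3, which lies 516 bases from PER2, had a log2 fold change of -0.80 (limma adjusted p = 0.349). AC068669.1, beside NR1D1, had -0.66 (limma adjusted p = 0.468). Any tie of these to PER2 or NR1D1 was not tested.

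The other genes of the clock pathway were followed through 24 genes listed by role, all of which passed the filter. None had a limma adjusted p under 0.05. At an unadjusted p under 0.05 there were 6 of the 24, of which 1 was higher and 5 were lower, again beside 10.2% of all genes. The list was chosen with earlier results of these data known, so its counts are not independent of them. The median log2 fold change was 0.0093, with 13 positive and 11 negative values, and its sign was not stable, at -0.010 on the deposited values without scaling and -0.098 without control replicate 2. Both auxin libraries lay above both controls in 4 of the 24, beside 18.6% of all genes, and below in 7, beside 19.6%.

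BMAL1, listed in the table under its older symbol ARNTL, is the partner of CLOCK and had the smallest p of the whole list. The gene lies on chromosome 11 (13277752 to 13387263, plus strand). Its signal was 2664 and 3263 in control and 3913 and 5927 in auxin. Both auxin values were above both control values, and the auxin libraries lay far apart. The log2 fold change was 0.71 (SE 0.20, interval 0.26 to 1.15, unadjusted p = 0.00525), and the limma adjusted p of 0.188 did not pass the threshold. The size depended on which auxin library was kept: leaving out auxin replicate 1 gave 1.01 on the log2 scale (limma adjusted p = 0.00163), and leaving out auxin replicate 2 gave 0.41. Each of those fits has 1 auxin library, which is assumed to vary as the control libraries do. The promoter of BMAL1 is known for the ROR elements through which the REV-ERB proteins act, and AGGTCA, in capitals here, begins 32 bases after its RefSeq start, shown in 30 bases.
BMAL1, chr11:13277809-13277838, plus strand: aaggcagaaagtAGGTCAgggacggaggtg

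Of the other partners in the positive limb, BMAL2 (ARNTL2) had 2775 and 3270.5 in control and 2155 and 2345 in auxin, a log2 fold change of -0.42 with an SE of 0.16 (unadjusted p = 0.0217, limma adjusted p = 0.347), and is named here after its values were seen. ARNTL2-AS1, which overlaps BMAL2, carried 0.351 times its control signal. The difference between BMAL1 and BMAL2 was not tested. NPAS2, which can stand in for CLOCK, also named after its values were seen, had a log2 fold change of 0.30 (limma adjusted p = 0.632) with overlapping groups.

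In the second loop, RORA, an activator of BMAL1, had the smallest p of its 3 genes. It stood at 643 and 670.2 in control and 776 and 893 in auxin, a log2 fold change of 0.34 with an SE of 0.18 (limma adjusted p = 0.606). RORA-AS1, which overlaps it, carried nearly as much control signal as RORA itself. The PAR bZIP gene HLF, a relative of DBP, had 1002 and 1104 in control and 714 and 733 in auxin, with all auxin values lower, a log2 fold change of -0.54 with an SE of 0.18 (unadjusted p = 0.0119, limma adjusted p = 0.266). TEF, the third of that family and named likewise, was at -0.11 (limma adjusted p = 0.938).

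TIMELESS, whose protein in mammals also works at replication forks, had 4080.3 and 4537 in control and 3015 and 3309 in auxin. The groups did not overlap, and the log2 fold change was -0.45 with an SE of 0.14 (unadjusted p = 0.0109, limma adjusted p = 0.255). The 7 genes for kinases, the phosphatase and ubiquitin enzymes that act on PER and CRY proteins had log2 fold changes from 0.0055 to 0.17, with 0 at an unadjusted p under 0.05. The gene with the smallest p among them was GSK3B, a kinase that phosphorylates clock proteins, at 15555 and 14540.3 in control and 16717 and 17156 in auxin. Both auxin values lay above both control values, with a log2 fold change of 0.17 and an SE of 0.11 (limma adjusted p = 0.701). AC092910.4, which overlaps GSK3B, carried 0.296 times its control signal.

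Among 6 genes that carry signals to the PER promoters, NR3C1, the glucocorticoid receptor, had the smallest p. It had 3025 and 3526 in control and 2204 and 2409 in auxin, without overlap, a log2 fold change of -0.50 with an SE of 0.15 (unadjusted p = 0.00826, limma adjusted p = 0.228). SIK1, a kinase that restrains the cAMP input to PER1, is named after its values were seen: it had 2763 and 2722 in control and 2276 and 1690.0 in auxin, a log2 fold change of -0.48 with an SE of 0.18 (limma adjusted p = 0.334). SIK1 is uncertain, since SIK1B is a near-identical copy, with a log2 fold change of -0.57 (limma adjusted p = 0.204), and the way reads were divided between copies is not given in the sources used here.

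**Figure D4:**
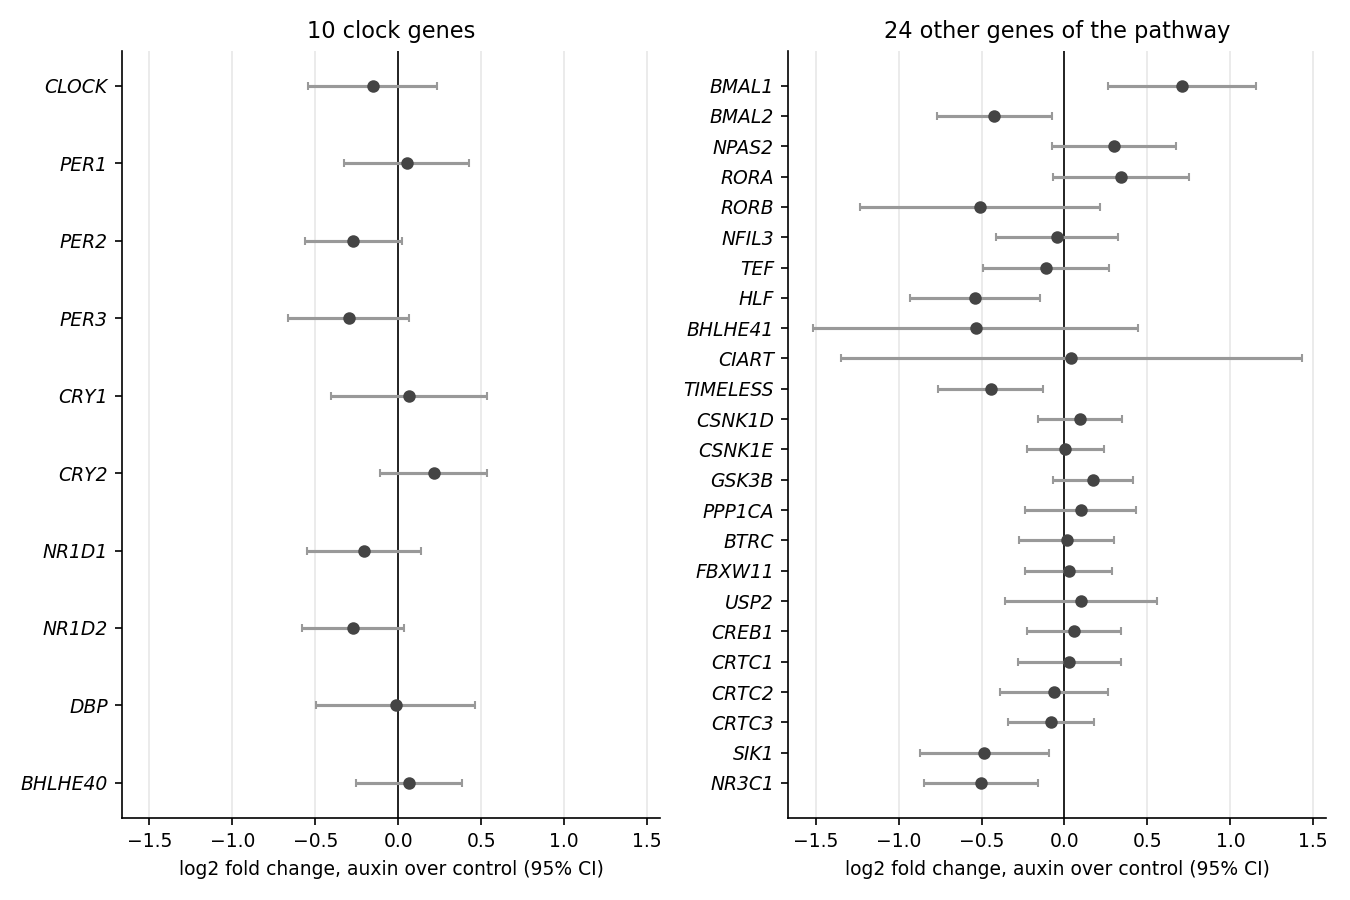
Log2 fold change of auxin over control with its 95% confidence interval from limma, for the 10 clock genes (left) and for 24 other genes of the pathway (right), on a shared axis. All 10 intervals on the left include 0; on the right BMAL1, at 0.71, lies highest, and the intervals of 6 genes leave 0 out before adjustment for the number of genes tested.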

How the data were processed

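EU-seq signal was analysed for 2 control and 2 auxin libraries, grouped by sample title; 1 control column with a misspelt name was assigned by its replicate number. The authors deposited 1 table with a scaled signal per gene and library, gene coordinates and type. Each library appeared to carry a factor of its own, and since long genes almost never hold a single step of the values, a step was not taken for a read. The submitters' processing notes name Trimmomatic 0.39, Bowtie2 2.4.5 and deepTools 3.5.1 and the builds hg38 and dm6, without roles; the counter, annotation, strand setting and scaling are not given in the sources used here. Per the labels' protocols the library kit was a directional one, and fly RNA (20 µg) was mixed with the human RNA (200 µg) before capture. Scaling to a common level removes any change in total nascent RNA.

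A gene was kept where its value, rescaled to the median library total, reached 10 in 2 or more libraries and summed to 15 or more. Library totals adjusted by trimmed means of M-values gave the scaling divisors, with trims of 30% on ratios and 5% on levels. The log2 of the value plus 1 was fitted with limma 3.58.1 (lmFit, eBayes with trend, prior degrees of freedom 8.23) in R 4.3.3, auxin against control with no further term; on this scale, log2(value + 1), fold changes of low genes come out too small. The Benjamini-Hochberg adjustment ran over all genes tested, with a threshold of 0.05. A count model had been planned, and limma replaced it because the values are not whole counts. The procedure was tested on simulated data, in which libraries varied independently of each other. Recovery of changes as small as those of the 10 clock genes was not tested. Promoters and figures used Python 3.11.15, pandas 2.3.3 and matplotlib 3.10.9; promoter windows matched all 10 genes by symbol.

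The 10 genes and the list of 24 were chosen with earlier results of these data known; some genes planned for the lists are not reported here, and the counts leave them out. Named from the list were genes called, the smallest p in each role group, and those said to be named after their values were seen; overlapping genes were named from 0.1 times the signal of the gene they overlap. Alternatives were median-ratio scaling, library totals, no scaling, no filter, a mean of at least 50, pseudocounts of 0.1 and 10, an adjusted p under 0.01, replicate number as a block, each library left out, and a shorter promoter window.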

Additional observations from a re-analysis of the deposited data

How the results depend on the processing

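None of the 10 clock genes was called under any of the 13 alternatives to the fit that were run. PER2, PER3, NR1D1 and NR1D2 kept a negative sign and CRY2 a positive one in all 13. These 5 are the genes whose groups did not overlap in the main fit, so leaving out 1 library could hardly turn their sign. The block, the mean of at least 50 and the stricter threshold leave the fold changes unchanged by construction. The kept signs therefore add little to the lack of overlap. With 1 library left out, the other 5 spanned 0: CLOCK from -0.38 to 0.076, PER1 from -0.037 to 0.15, CRY1 from -0.19 to 0.32, DBP from -0.27 to 0.25 (and 0.022 with libraries scaled by totals) and BHLHE40 from -0.031 to 0.17. Over all genes tested, 289 were called, against 55 on the deposited values without scaling, 82 at an adjusted p under 0.01 (fewer by construction) and from 132 to 681 with 1 library left out: 132 without control replicate 2, 681 without auxin replicate 1, 538 without auxin replicate 2. The cause was not tested. In the list of 24, leaving out 1 library gave from 0 to 1 call (BMAL1, without auxin replicate 1).

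No label ties equal replicate numbers to a common day or batch, and only 2 pairs exist. Across genes, which are not independent replicates, replicate 2 minus replicate 1 in control correlated with the same in auxin, with a Pearson's r of 0.231 and a Spearman's rho of 0.306 over all tested genes, and 0.462 and 0.448 over those whose mean reached 50. With the number as a block, 4273 of the 39464 genes tested were called. Among them were 0 of the 10 clock genes, 7 of the 24 and 1 of the genes overlapping or next to the 10. Of the 7, 2 were higher, with BMAL1 among them, and 5 were lower: BMAL2, HLF, TIMELESS, SIK1 and NR3C1. The limma adjusted p of these 6 named genes ran from 8.40e-09 for BMAL1 to 0.0040 for BMAL2. The other higher gene of the 7 is not named here. With 2 libraries per group, the block leaves little of a gene's own spread. The p-values of the block fit therefore rest largely on a spread shared across genes. The highest control level among the clock genes was 10.6 times the lowest by signal itself (CLOCK over DBP) and 38.0 times by signal per kb (BHLHE40 over CRY1), so the order depends on the measure. Read depth is not known here, and 2 libraries per group set the precision. CACGTG was in 2 windows with or without the 50 bases after the start.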
